A study of Mus musculus with 6 samples.

Results

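The 10 genes described here encode the core of the transforming growth factor beta (TGF-beta) pathway, namely the ligands Tgfb1 and Tgfb3, the receptors Tgfbr1 and Tgfbr2, the SMAD proteins Smad2, Smad3, Smad4 and Smad7, and the SMAD co-repressors Ski and Skil. They were taken by gene symbol from a table of 54532 genes, and all 10 were among the 13393 genes that passed a filter on low values (1 FPKM or more in 3 or more of the 6 libraries). The genes were chosen by their place in the pathway with the KO against WT values of these same libraries already known, so their differences are given as a description, with no p-values and nothing read from how many pass a threshold. FPKM, the unit of every level below, counts fragments after scaling to the length of the gene and the size of the library.

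Bulk RNA was sequenced from bone marrow (BM) of C57BL/6 mice at day 100 after transplantation, in 3 libraries labelled WT and 3 labelled KO for Phf6, a gene of a PHD finger protein found mutated in T-cell acute lymphoblastic leukemia (T-ALL). All recipients had been given hematopoietic cells transduced with a retrovirus that carries JAK3 M511I, an activating form of a Janus kinase, so the WT-labelled libraries are also leukemia samples and there was no library without JAK3 M511I. The study describes WT donors as Phf6 fl/y and the KO donors of its transcript profiles as Vav1-Cre;Phf6 fl/y, in which Vav1-Cre acts in all blood lineages, while the labels name no Cre and do not say whether GFP+ leukemic cells were sorted from the marrow. The genotype labels carry a gene symbol whose last digit rises within each group, and it was read here as Phf6 in all libraries because the series design names that gene.

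TGF-beta ligands are secreted in a latent form and, once released, bind TGFBR2, which then recruits and activates TGFBR1. The active receptor phosphorylates SMAD2 and SMAD3, which join SMAD4 and enter the nucleus, whereas SMAD7 blocks the receptor and SKI and SKIL hold SMAD target genes silent. Smad7 and Skil are themselves induced by the pathway in many cells, and in T cells TGF-beta restrains proliferation and effector differentiation.

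The libraries held 13015823 to 18235095 reads assigned to genes, recovered from the FPKM values, and 3 reads corresponded to 0.161 to 0.255 RPM, reads scaled to the library sizes the authors used, which were 0.645 (WT 2) to 1.21 (KO 2) times the recovered reads. Phf6 itself was at 7.47, 3.67 and 8.02 FPKM in WT 1, WT 2 and WT 3 and at 6.73, 5.50 and 5.11 in KO 1, KO 2 and KO 3. The groups overlapped, and since the deletion removes an inner part of the gene, a value for the whole gene does not check the labels. WT 2 stood apart from the other WT libraries, with Pearson correlations of log2(FPKM + 1) of 0.746 and 0.779 with them against 0.948 between WT 1 and WT 3, and with 17.1% of its reads in genes under 1000 bases against 3.11% to 5.01% in the other 5 libraries. Values without WT 2 are therefore given beside the results that it moved. Nothing in the labels says that the libraries of a group came from separate mice, so the p-values below measure the spread between these libraries. With 3 libraries against 3, an exact permutation test of a single value cannot give a p under 0.1.

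Summed levels of cell type markers also separated the groups, except those of T cells. Summed over T cell markers (Cd3d, Cd3e, Lck and others), the level was 613 to 1496 FPKM in WT and 688 to 810 in KO, and 0 of 8 markers were higher and 1 was lower in KO by limma. Over all genes tested, 13.1% were higher and 13.3% lower, and the markers were chosen with earlier results of these data known. Markers of immature thymocytes (Rag1, Rag2, Dntt and others) summed to 2.79 to 33.7 FPKM in WT and 861 to 1058 in KO, with 6 of 6 higher and Ptcra at 0 in all WT libraries. Neutrophil markers summed to 6627 to 93681 FPKM in WT and 91.1 to 280 in KO, with 9 of 9 lower. Markers of monocytes and macrophages summed to 325 to 4749 FPKM in WT and 8.37 to 22.5 in KO, with 5 of 6 tested lower. NK cell markers summed to 80.4 to 320 FPKM in WT and 0.547 to 2.87 in KO, with 4 of 4 tested lower and Klra8 at 0 in all KO libraries. Most of the WT sum was Klrc1, at 261, 48.3 and 213 FPKM in WT 1, WT 2 and WT 3. Erythroid markers summed to 137, 68045 and 525 FPKM in WT 1, WT 2 and WT 3 and to 16.9 to 126 in KO, and B cell markers to 11.3, 985 and 17.2 FPKM and to 0.906 to 1.11, so that WT 2 was the highest library for both. Stromal and endothelial markers summed to 5.80 to 11.2 FPKM in WT and 17.2 to 18.2 in KO, but this sum was nearly all Pecam1, which leukocytes also express, at 7.66 ± 2.51 FPKM (SD, n = 3) in WT and 17.8 ± 0.554 (SD, n = 3) in KO. The other 6 markers of that list had lower means in KO, with Col1a1 at 0.177 and 0.0421 FPKM and Cxcl12 at 0.408 and 0.00219, and were not tested. Markers of megakaryocytes and platelets summed to 4.96 to 59.7 FPKM in WT and 0.264 to 0.321 in KO. Ptcra was under 1 FPKM in all WT libraries, and Csf3r, Csf1r, Cd14, Mpeg1, Klrb1c, Klre1 and Klra8 in all KO libraries. The filter thus fixed in advance that their groups do not overlap, and the marker counts above are not free of that. In bulk RNA, fewer cells of a type and less RNA per cell cannot be told apart, and the part of these cell types in the results below was not tested.

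**Figure D1:**
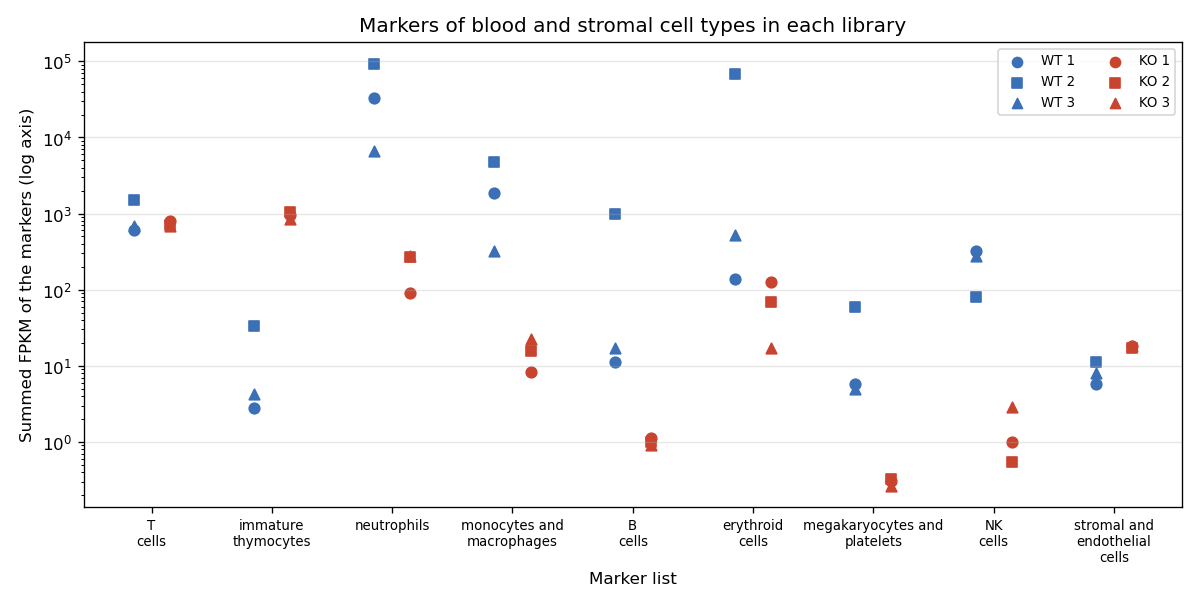
Summed FPKM (log axis) of the markers of each blood and stromal cell type in each of the 6 libraries, with circles and other symbols for single libraries. Markers of immature thymocytes lay at 861 to 1058 FPKM in KO and at 2.79 to 33.7 in WT, and neutrophil markers at 91.1 to 280 in KO and 6627 to 93681 in WT.

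Across the 10 genes, the KO-labelled libraries had higher levels of Tgfb3 and Tgfbr1 and lower levels of Tgfb1, Tgfbr2, Smad7, Ski and Skil, with no overlap between the groups, while Smad2, Smad3 and Smad4 overlapped. Groups that do not overlap were found for 49.1% of all genes tested. In the limma fit over all genes, 5 of the 10 passed the threshold of an adjusted p of 0.05 (2 higher and 3 lower), beside 26.4% of all genes tested, of which 13.1% were higher and 13.3% lower. Since these values were known when the genes were chosen, nothing is read from that count. The count was 8 without WT 2, 3 without WT 1, WT 3 or KO 1, and 2 without KO 2 or KO 3 or in TPM, a rescaling in which every library has the same sum. The median log2 difference, KO minus WT, was -0.76 over the 10 genes and 0.086 over all genes tested.

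**Figure D2:**
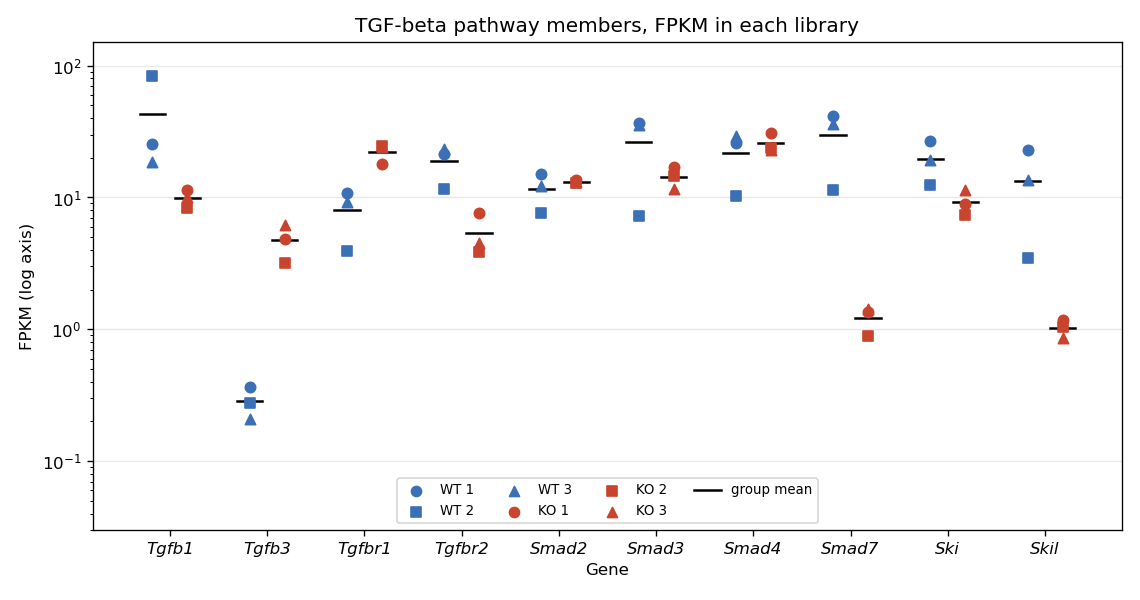
FPKM (log axis) of the 10 genes in the 3 WT and 3 KO libraries, where a symbol is a library and a line the group mean. Smad7 lay between 11.3 and 41.8 in WT and between 0.885 and 1.42 in KO, and Tgfb3 between 0.210 and 0.364 in WT and between 3.19 and 6.15 in KO.

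Tgfb1 encodes the main TGF-beta ligand of blood and immune cells (ENSMUSG00000002603, chromosome 7, 25687002 to 25705077, plus strand, GRCm38). Its level was 25.6, 84.0 and 18.5 FPKM in WT 1, WT 2 and WT 3 and 11.5, 8.25 and 10.04 FPKM in KO 1, KO 2 and KO 3. All KO libraries were below all WT libraries, and WT 2 was far above the other WT libraries. The means were 42.7 ± 35.9 FPKM (SD, n = 3) in WT and 9.92 ± 1.61 (SD, n = 3) in KO, 4.31-fold lower in KO, or 2.23-fold lower without WT 2. The log2 difference was -1.71 (SE 0.55), and -1.07 without WT 2.

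Tgfb3 encodes a second ligand that signals through the same receptor pair (ENSMUSG00000021253, chromosome 12, 86056745 to 86079041, minus strand, GRCm38). It was at 0.364, 0.277 and 0.210 FPKM in the WT libraries, from 19, 11 and 11 reads, and at 4.86, 3.19 and 6.15 FPKM in the KO libraries, from 306, 170 and 335 reads. The WT levels thus rested on few reads, with 95% exact Poisson intervals of 0.219 to 0.568, 0.138 to 0.495 and 0.105 to 0.375 FPKM that cover counting error only, and each KO library was above each WT library. As all WT libraries were under 1 FPKM, the filter required all KO libraries to be at 1 FPKM or more, fixing that separation. The means were 0.283 ± 0.0773 FPKM (SD, n = 3) in WT and 4.73 ± 1.48 (SD, n = 3) in KO, 16.7-fold higher in KO, with a log2 difference on the log2(FPKM + 1) scale of 2.13 (SE 0.25). That scale understates the change of a gene this low, and with a pseudocount of 0.1 the difference was 3.63. Exons of Tgfb3 overlap Gm37804 and Gm48008 on the opposite strand over 163 and 257 of 3383 bases, and whether counting used strand is not given in the sources used here. Those genes had at most 18 and 2 reads in a library.

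The ligands moved in opposite directions, and the ratio of their FPKM within a library, which no scaling of the library alters, separated the groups. Tgfb1 exceeded Tgfb3 70.5, 304 and 88.1 times in WT 1, WT 2 and WT 3 and 2.36, 2.59 and 1.63 times in KO 1, KO 2 and KO 3. Tgfb1 therefore had the higher level in all 6 libraries, and the KO libraries lay below every WT library in this ratio. The log2 ratio of FPKM + 1 averaged 4.79 ± 1.11 (SD, n = 3) in WT and 0.95 ± 0.28 (SD, n = 3) in KO.

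The genes most like each ligand over the 6 libraries were named by the smallest Euclidean distance between centred log2(FPKM + 1) values among 10387 protein-coding genes. For Tgfb1 they were Lgmn at a distance of 0.203, Stx4a at 0.305 and Cd37 at 0.396. These 3 genes shared the high WT 2 value of Tgfb1, with Cd37 at 65.4, 199 and 63.3 FPKM in WT and 22.6 to 29.3 in KO. For Tgfb3 they were Bcl2l14 at 0.191, Slit3 at 0.248 and Zfp580 at 0.286. All 3 were highest in KO 3 and lowest of the KO libraries in KO 2, as was Tgfb3. The genes were picked by likeness over these same values, so nothing is read from the shared patterns. Bcl2l14 and Slit3 were under 1 FPKM in all WT libraries and Lgmn in all KO libraries. The filter thus fixed that the groups of these genes do not overlap.

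Tgfbr1 encodes the type I receptor kinase that phosphorylates SMAD2 and SMAD3 (ENSMUSG00000007613, chromosome 4, 47353222 to 47414931, plus strand, GRCm38), and Tgfbr2 the type II receptor that binds the ligand first (ENSMUSG00000032440, chromosome 9, 116084293 to 116175360, minus strand, GRCm38). The windows from 250 bases before to 50 bases after the start of transcription are shown for these receptors and for Tgfb1 because they moved in opposite directions, from RefSeq on GRCm38.p6, which held an entry for 5 of the 10 genes. Capitals mark CAGAC or its complement GTCTG, the box that SMAD3 and SMAD4 bind, and the GC-rich GGCGC and GGCCG or their complements GCGCC and CGGCC, searched on both strands. They are matches of letters, and no overlap between the kinds of motif occurred in these windows.
Tgfb1: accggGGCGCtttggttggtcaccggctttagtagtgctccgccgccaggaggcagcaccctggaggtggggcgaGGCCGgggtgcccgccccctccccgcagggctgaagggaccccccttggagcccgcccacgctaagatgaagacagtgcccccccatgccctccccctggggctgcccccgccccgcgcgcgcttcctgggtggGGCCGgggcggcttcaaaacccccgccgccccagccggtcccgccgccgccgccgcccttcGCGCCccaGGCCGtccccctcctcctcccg
Tgfbr1: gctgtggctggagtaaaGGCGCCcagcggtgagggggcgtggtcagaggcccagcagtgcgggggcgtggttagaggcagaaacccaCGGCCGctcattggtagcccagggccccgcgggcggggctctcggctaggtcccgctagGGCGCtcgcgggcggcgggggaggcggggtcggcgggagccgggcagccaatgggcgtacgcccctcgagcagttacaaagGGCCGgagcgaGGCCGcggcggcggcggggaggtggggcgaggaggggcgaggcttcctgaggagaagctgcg
Tgfbr2: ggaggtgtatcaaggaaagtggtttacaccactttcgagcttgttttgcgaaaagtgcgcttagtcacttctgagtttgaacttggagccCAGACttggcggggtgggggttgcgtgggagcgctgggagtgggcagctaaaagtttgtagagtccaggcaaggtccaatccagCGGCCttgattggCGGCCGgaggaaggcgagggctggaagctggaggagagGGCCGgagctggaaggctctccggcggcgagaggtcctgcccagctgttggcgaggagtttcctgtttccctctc

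The Tgfbr1 window (chr4:47352972-47353271, plus strand) held 0 matches to CAGAC and 7 to the GC-rich motifs, the Tgfbr2 window (chr9:116175314-116175613, minus strand) 1 and 4, and the Tgfb1 window (chr7:25686752-25687051, plus strand) 0 and 5. Among all 32851 windows of that length in the table, 49.6% held CAGAC or GTCTG and 48.3% held at least 1 of the GC-rich motifs. Of the other entries, Ski had 0 and 20 matches, Smad3 0 and 1, and a second start of Tgfbr1 1 and 0.

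Tgfbr1 was at 10.9, 3.91 and 9.16 FPKM in WT 1, WT 2 and WT 3 and at 17.8, 24.6 and 24.3 FPKM in KO 1, KO 2 and KO 3. All KO libraries were above all WT libraries, and WT 2 was the lowest. The means were 7.98 ± 3.63 FPKM (SD, n = 3) and 22.2 ± 3.85 (SD, n = 3), 2.79-fold higher in KO or 2.22-fold without WT 2, with a log2 difference of 1.45 (SE 0.38), or 1.07 without WT 2. Tgfbr2 was at 21.3, 11.6 and 23.4 FPKM in the WT libraries and at 7.66, 3.85 and 4.55 FPKM in the KO libraries. Here all KO libraries were below all WT libraries. The means were 18.8 ± 6.31 FPKM (SD, n = 3) in WT and 5.35 ± 2.03 (SD, n = 3) in KO, 3.51-fold lower in KO, with a log2 difference of -1.63 (SE 0.37).

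The receptors thus changed places. Tgfbr1 was at 0.510, 0.337 and 0.391 times the level of Tgfbr2 in WT 1, WT 2 and WT 3 and at 2.32, 6.40 and 5.33 times its level in KO 1, KO 2 and KO 3. Tgfbr2 was the higher receptor in all 3 WT libraries and Tgfbr1 in all 3 KO libraries, and the log2 ratio was 3.08 higher in KO. The groups did not overlap, and WT 2 lay at the low end of the WT range in this ratio.

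**Figure D3:**
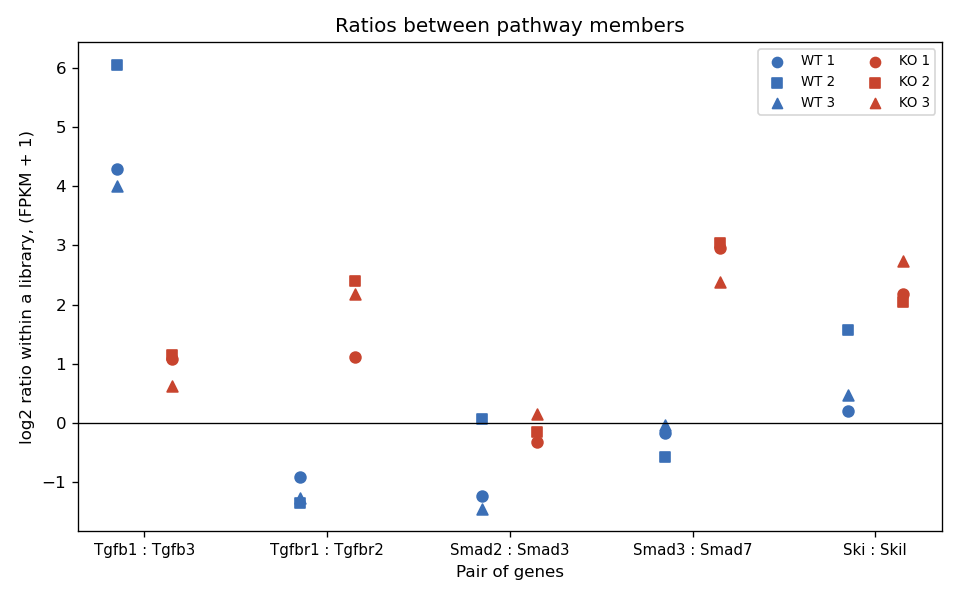
Log2 ratio of FPKM + 1 between pairs of genes within each of the 6 libraries, with each symbol a library and the WT and KO groups in separate colours. Tgfbr1 to Tgfbr2 lay below 0 in all WT and above 0 in all KO libraries, and Smad2 to Smad3 overlapped between the groups.

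Smad2 and Smad3 encode the SMADs that the receptor phosphorylates, and Smad4 their shared partner. Smad2 (ENSMUSG00000024563, chromosome 18, 76241580 to 76305731, plus strand) was at 15.1, 7.67 and 12.2 FPKM in the WT libraries and at 13.5, 12.9 and 13.1 FPKM in the KO libraries, with a log2 difference of 0.21 (SE 0.29). Smad4 (ENSMUSG00000024515, chromosome 18, 73639009 to 73703780, minus strand) was at 26.1, 10.3 and 29.4 FPKM in WT and at 30.8, 23.7 and 22.9 FPKM in KO, with a log2 difference of 0.34 (SE 0.42). Neither group stood apart for these genes, and leaving out WT 2, the lowest library in both, moved their differences to -0.04 and -0.11. Smad3 (ENSMUSG00000032402, chromosome 9, 63646767 to 63757994, minus strand) was at 36.9, 7.24 and 35.2 FPKM in WT 1, WT 2 and WT 3 and at 17.1, 14.5 and 11.6 FPKM in KO 1, KO 2 and KO 3. The groups overlapped only through WT 2, since WT 1 and WT 3 exceeded every KO library. The log2 difference was -0.56 (SE 0.61) in all libraries and -1.28 without WT 2, but 0.23 after rescaling to TPM, which moved the median of all genes by 0.78, and the WT mean was 1.84 times the KO mean with WT 2 and 2.51 times without it. The ratio of Smad2 to Smad3 was 0.408, 1.06 and 0.347 in WT and 0.786, 0.890 and 1.13 in KO, so those groups overlapped as well.

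Smad7, the inhibitory SMAD that recruits ubiquitin ligases to the receptor, had the lowest KO level relative to WT of the 10 genes (ENSMUSG00000025880, chromosome 18, 75367529 to 75395935, plus strand). It was at 41.8, 11.3 and 36.0 FPKM in the WT libraries, from 2914, 602 and 2520 reads, and at 1.34, 0.885 and 1.42 FPKM in the KO libraries, from 113, 63 and 103 reads. The lowest WT library was above the highest KO library. The means were 29.7 ± 16.2 FPKM (SD, n = 3) in WT and 1.21 ± 0.287 (SD, n = 3) in KO, 24.5-fold lower in KO, or 32.0-fold lower without WT 2, with a log2 difference of -3.61 (SE 0.50), or -4.17 without WT 2. Smad4, Smad7 and Smad2 lie within 2.67 Mb of each other on chromosome 18, and of these neighbours Smad7 alone had groups that do not overlap. Smad3 was at 0.884, 0.640 and 0.979 times the level of Smad7 in WT and at 12.8, 16.3 and 8.19 times its level in KO. The receptor SMAD thus exceeded the inhibitory SMAD in every KO library and in no WT library.

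Ski and Skil encode co-repressors that bind SMAD complexes on DNA. Ski (ENSMUSG00000029050, chromosome 4, 155154075 to 155222592, minus strand) was at 26.8, 12.4 and 19.2 FPKM in WT 1, WT 2 and WT 3 and at 8.86, 7.37 and 11.4 FPKM in KO 1, KO 2 and KO 3. All KO libraries were below all WT libraries, with a log2 difference of -0.96 (SE 0.34), or -1.23 without WT 2 and -0.20 in TPM. Skil (ENSMUSG00000027660, chromosome 3, 31095058 to 31122577, plus strand) was at 23.1, 3.49 and 13.6 FPKM in the WT libraries and at 1.17, 1.04 and 0.865 FPKM in the KO libraries, with a log2 difference of -2.53 (SE 0.60), or -3.22 without WT 2. The WT libraries were all above the KO libraries, and WT 2 was the nearest to them. The means were 13.4 ± 9.80 FPKM (SD, n = 3) and 1.02 ± 0.152 (SD, n = 3), 13.1-fold lower in KO, or 17.9-fold lower without WT 2. Ski exceeded Skil 1.16, 3.54 and 1.41 times in WT 1, WT 2 and WT 3 and 7.58, 7.11 and 13.2 times in KO 1, KO 2 and KO 3, and no KO library fell within the WT range.

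**Figure D4:**
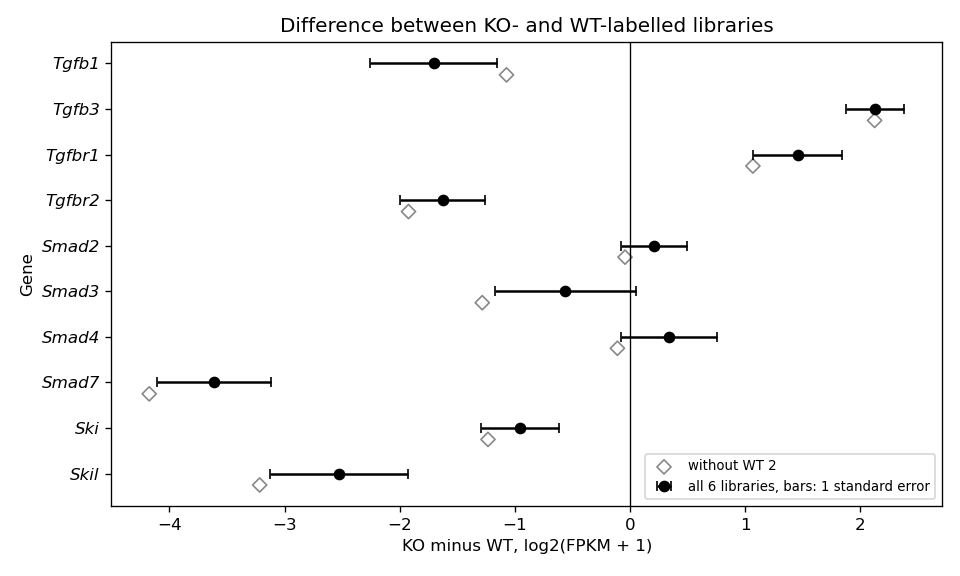
Difference between KO and WT libraries for the 10 genes, log2(FPKM + 1), KO minus WT, as filled circles with bars of 1 standard error and as open diamonds without WT 2. Smad7, Skil and Tgfb3 had the largest differences, at -3.61, -2.53 and 2.13, and Tgfbr1 and Tgfbr2 lay on opposite sides of 0.

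The order of levels also differed. In WT the order of means ran from Tgfb1 at 42.7 FPKM through Smad7, Smad3, Smad4, Ski, Tgfbr2, Skil and Smad2 to Tgfbr1 at 7.98, with every pair of neighbours overlapping between libraries, and Tgfb3 stood apart at 0.283. In KO the order ran from Smad4 at 25.8 FPKM and Tgfbr1 at 22.2 to Smad3 at 14.4 and Smad2 at 13.1, then Tgfb1 at 9.92, Ski at 9.22, Tgfbr2 at 5.35 and Tgfb3 at 4.73, and last Smad7 at 1.21 and Skil at 1.02. Neighbours overlapped within each of these 4 groups of genes and did not overlap between them. Smad7 was the second highest of the 10 genes in WT and the second lowest in KO.

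Each level was also divided by the summed FPKM of the T cell markers of the library, a calculation added after the values were seen. Of those markers, Lck was higher and Cd5 and Cd2 were lower in every KO library than in every WT library. The sum therefore does not measure T cell content alone. Per 1000 FPKM of T cell markers, Tgfb1 was at 26.5 to 56.2 in WT and 11.5 to 14.6 in KO, Tgfb3 at 0.185 to 0.594 and 4.46 to 8.94, and Tgfbr1 at 2.61 to 17.7 and 22.0 to 35.3. Smad7 was at 7.57 to 68.2 in WT and 1.24 to 2.06 in KO, and Skil at 2.33 to 37.7 and 1.26 to 1.45. The groups of these 5 genes did not overlap in this measure, as for 43.7% of all genes tested, so nothing particular to the members is read from it. Tgfbr2 was at 7.76 to 34.8 in WT and 5.37 to 9.45 in KO, and Ski at 8.26 to 43.7 and 10.3 to 16.6. Both overlapped only through WT 2, where Cd3d alone was at 561 FPKM against 89.8 and 109 in WT 1 and WT 3. In WT 1 and WT 3, Tgfbr2 was at 34.8 and 33.6 and Ski at 43.7 and 27.6, above every KO library. Smad2, Smad3 and Smad4 overlapped as well, Smad3 and Smad4 only through WT 2.

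Other genes of the pathway were taken from 8 lists written from general knowledge, but with earlier results of these data known. Their p-values are from limma's moderated test, adjusted by Benjamini-Hochberg over the 13393 genes. They are given as a description, and nothing is read from how many pass. Of 90 genes listed, 57 were tested, of which 8 were higher and 11 lower in KO and 38 did not pass, and 13 higher and 16 lower had groups that do not overlap. Over all genes tested, 26.4% passed and 49.1% had groups that do not overlap. A gene under 1 FPKM throughout a group passed the filter only with the other group at 1 FPKM or more throughout. The filter thus fixed in advance that the groups of Lrrc32, Thbs1, Gdf11, Acvr2b, Acvrl1, Pmepa1, Zeb2, Tgfbi and Eomes do not overlap. Their p-values below are not free of that. The median log2 difference was 0.010. Without WT 2 the calls rose to 38, and among all genes from 3539 to 6967, while without KO 2 all genes gave 1934.

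Of the genes that release or hold latent ligand, 6 of 13 were tested, 1 rose and 2 fell, beside 26.4% called of all genes. Lrrc32, which anchors latent TGF-beta on the cell surface, rose from 0.292 ± 0.149 to 1.68 ± 0.27 FPKM (SD, n = 3 each; limma adjusted p = 0.00777), and was highest in KO 3 and lowest in WT 1. Thbs1, an activator of the latent ligand, fell from 17.1 ± 11.8 to 0.102 ± 0.0938 FPKM (SD, n = 3 each; limma adjusted p = 0.00761), and Mmp9, a protease of neutrophil granules that also releases the ligand, fell from 191 to 1.45 FPKM (limma adjusted p = 0.000799). Both of these genes fell alongside the neutrophil and monocyte markers given above, whose part in the result was not tested. Furin, which cleaves the precursor, differed by -0.74 in log2 units (limma adjusted p = 0.119), and passed without WT 2 at -0.87. In TPM its difference was -0.02 (limma adjusted p = 0.982).

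Among other ligands of the superfamily, 2 of 12 were tested and both were called, beside 26.4% of all genes. Bmp7, a bone morphogenetic protein, was at 1.63, 0.995 and 1.46 FPKM in WT and at 19.8, 20.8 and 21.3 FPKM in KO. It rose by 3.20 on the log2 scale (SE 0.23, limma adjusted p = 0.00037), with no overlap between the groups. Gdf11, a ligand that signals through SMAD2 and SMAD3, fell from 3.43 ± 0.431 to 0.761 ± 0.258 FPKM (SD, n = 3 each; limma adjusted p = 0.00587), and this call was lost when the values were rescaled to TPM (adjusted p = 0.164).

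Of other receptors and co-receptors, 4 of 12 were tested. Acvr2b, a type II receptor of activins, rose from 0.149 ± 0.0333 to 2.66 ± 0.347 FPKM (SD, n = 3 each; limma adjusted p = 0.00123). Acvrl1, a type I receptor best known in endothelial cells, fell from 11.7 ± 8.20 to 0.108 ± 0.0576 FPKM (SD, n = 3 each; limma adjusted p = 0.00402). Of the stromal and endothelial markers, Pecam1 rose from a mean of 7.66 to 17.8 FPKM and the others had lower means in KO. Cdh5 and Kdr among them were at most 0.0405 and 0.0188 FPKM in any library, and the part of endothelial cells was not tested. Acvrl1 fell alongside the neutrophil and monocyte markers, whose part in the result was not tested. The other activin receptors did not pass with all libraries. Acvr1b, an activin type I receptor, was at 18.3, 3.45 and 15.1 FPKM in WT and 2.24, 1.71 and 3.06 in KO (limma adjusted p = 0.0688), and passed without WT 2 (adjusted p = 0.000539). Acvr2a was at 6.46, 0.778 and 6.37 FPKM in WT and 3.06, 2.99 and 3.10 in KO (limma adjusted p = 0.847), and passed without WT 2 at a log2 difference of -0.87 (adjusted p = 0.00376). In TPM the Acvr2a difference was 0.48 (limma adjusted p = 0.717).

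Among the SMADs of the bone morphogenetic protein arm, Smad5 rose from 6.34 ± 2.40 to 18.5 ± 6.06 FPKM (SD, n = 3 each; limma adjusted p = 0.0329), a call lost without WT 1, KO 1, KO 2 or KO 3 with log2 differences of 1.20 to 1.65, in TPM (adjusted p = 0.0531) and without a filter (adjusted p = 0.0567). Smad1 differed by -0.68 in log2 units (limma adjusted p = 0.189), and passed without WT 2 at -0.96. In TPM the Smad1 difference was -0.17 (limma adjusted p = 0.869). Of SMAD regulators, 16 of 17 were tested, 2 rose, 1 fell and 13 did not pass, beside 26.4% of all genes. The pair that rose are TGF-beta induced inhibitors of receptor signaling, with Ldlrad4 at 4.60, 4.95 and 6.21 FPKM in WT and 40.8, 36.9 and 30.1 in KO and a log2 difference of 2.56 (limma adjusted p = 0.000843). Pmepa1 rose from 0.280 ± 0.270 to 3.97 ± 0.458 FPKM (SD, n = 3 each; limma adjusted p = 0.00173). Every KO library exceeded every WT library for both, which the filter fixed in advance for Pmepa1. Smad7, an inhibitor of the same step, was lower in every KO library. Tgif1, a SMAD co-repressor, fell from 15.9 ± 4.07 to 5.76 ± 0.932 FPKM (SD, n = 3 each; limma adjusted p = 0.0165), a call lost without WT 1, KO 1, KO 2 or KO 3 with differences of -1.20 to -1.41, and lost in TPM (-0.60, adjusted p = 0.492).

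Of nuclear partners, 8 of 10 were tested and 1 was called, beside 26.4% of all genes. Zeb2, a zinc-finger repressor, was at 2.25, 1.74 and 1.06 FPKM in WT and at 0.0215, 0.0191 and 0.0218 in KO, and fell by 1.37 on the log2(FPKM + 1) scale (limma adjusted p = 0.00473), or by 3.83 with a pseudocount of 0.1. Runx3, needed for CD8 T cells and for response to TGF-beta, was at 47.5, 13.7 and 46.3 FPKM in WT and 14.1, 9.65 and 11.3 in KO (limma adjusted p = 0.0967), and the groups overlapped only through WT 2, without which it passed (adjusted p = 0.000571). Runx1 and Zeb1 differed by 1.01 and 1.02 in log2 units with limma adjusted p of 0.17 and 0.13, and passed without WT 2 at 1.46 and 0.57. In the arms outside the SMADs, 7 of 7 genes were tested. Tab1, which activates the kinase encoded by Map3k7, rose from 9.28 ± 5.02 to 24.8 ± 1.82 FPKM (SD, n = 3 each; limma adjusted p = 0.0289), a call lost without WT 1, WT 3, KO 1, KO 2 or KO 3 with log2 differences of 1.19 to 1.49, and without a filter (adjusted p = 0.0506). Mapk14, a stress-activated kinase, fell from 54.3 ± 10.2 to 27.9 ± 1.14 FPKM (SD, n = 3 each; limma adjusted p = 0.0333), a call lost without WT 1, KO 1, KO 2 or KO 3 with differences of -0.78 to -0.95, and lost in TPM (-0.11, adjusted p = 0.879). Map3k7, Strap and Traf6 differed by 0.81, 0.64 and 0.76 in log2 units with limma adjusted p of 0.115, 0.118 and 0.116, and passed without WT 2 at 0.50, 0.79 and 0.51.

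Of known response genes, 12 of 15 were tested, 1 rose, 4 fell and 7 did not pass, beside 26.4% called of all genes. Tgfbi, an extracellular matrix gene named for its induction by TGF-beta, fell from 34.4 ± 23.3 to 0.457 ± 0.0366 FPKM (SD, n = 3 each; limma adjusted p = 0.00304), and Junb, an immediate response gene, fell from 491 ± 195 to 54.4 ± 32.9 FPKM (SD, n = 3 each; limma adjusted p = 0.00557, and 0.0548 in TPM). Tgfbi fell alongside the markers of monocytes and macrophages, whose part in the result was not tested. Tbx21 and Eomes are transcription factors of effector T cells and NK cells that TGF-beta is known to restrain rather than induce. Tbx21 was at 36.8, 37.2 and 53.5 FPKM in WT and 0.863, 2.30 and 2.35 in KO (limma adjusted p = 0.000553), and Eomes was at 35.6, 15.6 and 34.6 FPKM in WT and 0.465, 0.0153 and 0.329 in KO (limma adjusted p = 0.000613). Both genes fell alongside the NK cell markers. Those markers summed to 320, 80.4 and 274 FPKM in WT 1, WT 2 and WT 3 and to 0.547 to 2.87 in KO. Within WT, Eomes was lowest in WT 2, as was that sum, but Tbx21 was not. Most of that WT sum was Klrc1, and the part of NK cells or effector T cells in the result was not tested. The gene that rose was Itgae, an integrin subunit induced by TGF-beta in T cells, named here after its values were seen. It was at 0.792, 0.743 and 1.38 FPKM in WT and at 5.12, 4.31 and 15.8 in KO (limma adjusted p = 0.0202), a call lost without WT 1 (adjusted p = 0.0651) or KO 1 (adjusted p = 0.0506).

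**Figure D5:**
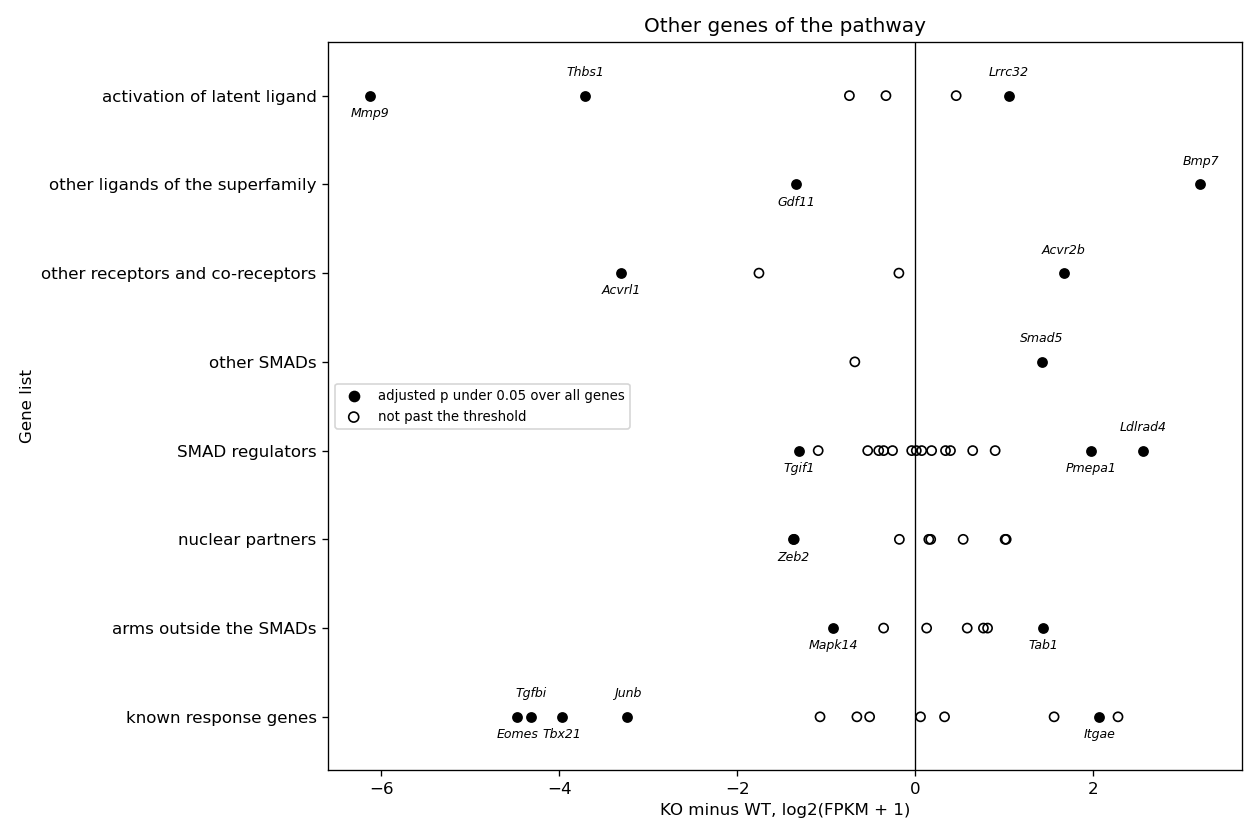
Log2 difference, KO minus WT, of the other pathway genes tested, 1 row of points for each of 8 lists, with filled points for an adjusted p under 0.05 over all genes. Among 57 tested genes 8 were higher and 11 lower, from Mmp9 at -6.13 to Bmp7 at 3.20.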

How the data were processed

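Bulk RNA of 6 BM libraries (3 labelled WT, 3 labelled KO) was analysed from 1 table. The authors extracted RNA with Trizol, prepared libraries from 1 ug of total RNA (NEBNext) and read both ends of each fragment. HISAT2 2.0.5, featureCounts 1.5.0-p3 and builds GRCm38 and mm10 are named in the submitters' processing notes. The deposited values are FPKM per gene and library, beside gene coordinates and gene length, another column the authors deposited. FPKM steps gave whole reads for 100% of values within 0.001 reads, from which 13015823 to 18235095 reads per library were recovered. Whether counting used strand is not given in the sources used here. Gene coordinates in the table equalled those of GRCm38 for 53462 genes and 9 of the 10 members. Intervals and limits cover counting error only.

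Values were tested as log2(FPKM + 1) by limma 3.58.1 in R 4.3.3 (lmFit, eBayes with trend, two-sided, Benjamini-Hochberg, threshold 0.05) for 13393 genes at 1 FPKM or more in 3 or more libraries. The script was tested on simulated data. The members, pathway lists and cell type markers were chosen with earlier results of these data known. Of each pathway list, up to 4 genes with the smallest p-values were named, called or not, plus Phf6 and, for each ligand, its 3 nearest genes. Tables and figures used Python 3.11.15, pandas 2.3.3 and Matplotlib 3.10.9. Alternatives were a pseudocount of 0.1, no filter, a filter at a mean of 5 FPKM, scaling by median of ratios, TPM, removal of a length trend, array weights, a replicate block, voom on recovered reads and leaving out each library.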

Additional observations from a re-analysis of the deposited data

How the results depend on the processing

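The threshold was passed by 3539 genes, by 5 of the 10 members and by 19 pathway genes. Over all genes the count was 1837 with a mean FPKM of at least 5, which tests fewer genes, and 8461 with array weights, where WT 2 had a weight of 0.0509. The members' count was 3 without a filter, 2 in TPM and 8 with array weights, and the pathway count was 42 with array weights. Leaving out a library gave 1934 (without KO 2) to 6967 (without WT 2) over all genes, 2 to 8 members and 14 to 38 pathway genes; the cause was not tested. The within-library log2 ratios moved with a pseudocount of 0.1 to -5.41 for Tgfb1 to Tgfb3, 3.75 for Smad3 to Smad7 and 2.20 for Ski to Skil. No difference turned its sign past the threshold. Voom on recovered reads, with 100% of values whole, called 3386 genes.

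TPM shifted the median of all genes by 0.78, and relative to that shift Smad3 was at -0.55 and Ski at -0.98, while unshifted values were 0.23 and -0.20. The split of calls was then 2932 higher of 4271, against 1754 higher of 3539. Median-of-ratios scaling changed no count, because its factors were equal in all libraries.

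Same-numbered libraries of the groups are not shown to be paired, since their deviations from the group means correlated at 0.0954, 0.105 and -0.153. A fit with a replicate block gave 2676 genes, 4 members and 17 pathway genes.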

Other observations

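Pathway genes under the filter held reads that differed between the groups, and these genes were chosen after their values were seen and were not tested. Inhba, which encodes a subunit of activin, had 599, 62 and 209 reads in the WT libraries and 6, 0 and 5 in the KO libraries. Bmpr1a, a type I receptor of bone morphogenetic proteins, had 202, 39 and 161 reads in WT and 0, 1 and 2 in KO. Ltbp4, which binds latent ligand, had 52, 6 and 66 reads in WT and 3, 2 and 3 in KO. Bambi, a decoy receptor, had 73, 100 and 37 reads in WT and 24, 23 and 22 in KO. For these 4 genes every WT library had more reads than every KO library, and a higher FPKM. Groups that do not overlap in FPKM were found for 49.1% of all genes tested, so nothing is read from this. Of the other pathway genes under the filter, Ltbp3, Bmp2, Gdf15, Acvr1 and Foxp3 also had a lower FPKM in every KO library than in every WT library. Foxh1 had a higher FPKM in every KO library, from at most 4 reads. The rest, among them Tgfbr3, Bmpr2 and Zfyve9, overlapped between the groups.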
